A study of Mus musculus with 4 samples.

Results

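The amino acid transporter genes of the Slc1, Slc3, Slc6, Slc7, Slc36, Slc38 and Slc43 families were compared between mouse liver cells of embryonic day 13 and of adult mice. The members were chosen by gene symbol: every gene on the array whose symbol places it in one of these families was taken, which gave 58 of 30038 gene names and 100 of 41174 probes. RNA of hepatoblasts at embryonic day 13 (E13, n = 2) and of hepatocytes of mice aged 8 weeks (adult, n = 2) had been labelled with Cy3 and hybridised to 4 one-colour Agilent arrays on 1 slide. All samples were liver cells of C57BL/6NCr mice, with no transgene, deletion or treatment given in the labels. Sex, pooling of animals, the purification of the cells and whether samples 1 and 2 of a stage came from separate animals are not given in the labels, so each p-value reflects the variation of these 4 samples and no more, and that variation may be technical.

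Cells take up amino acids through families of membrane carriers that differ in substrate, in the ion they couple to and in direction. Slc7 light chains exchange one amino acid for another and reach the surface only when bound to a heavy chain, Slc3a2 or Slc3a1, whereas the cationic carriers of the same family work alone. Slc38 carriers move glutamine and other small neutral amino acids with sodium, and Slc1 carriers take up glutamate or exchange neutral amino acids. Slc36a1 and Slc36a2 couple to protons, and Slc43a1 and Slc43a2 let large neutral amino acids pass by facilitated diffusion. Slc6 carriers bring in taurine, betaine, creatine, glycine, neutral amino acids or monoamines. In the adult liver amino acids are the source of urea, glucose and bile acid conjugates, while in the embryo the liver grows fast and is the main site of blood formation.

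Values below are log2 processed signal minus the 75th percentile of the same array, so that 0 is that percentile, and a log2 fold is adult minus E13 with its standard error (SE). A gene was tested where the scanner software marked a probe as well above background on both arrays of E13, of adult cells or of each. It was called where limma's Benjamini-Hochberg adjusted p over all 16421 genes tested was under 0.05. Where both arrays of 1 stage failed to reach that mark, the gene is called undetected in that stage and its change is given as "at least N-fold", a bound set by the dimmest signals well above background there, and its fitted fold is not a size. Each gene is represented by its brightest tested probe, and levels of different probes cannot be set against each other.

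On the E13 arrays 23773 and 23049 probes were well above background, and on the adult arrays fewer, 20039 and 19299. The dimmest such signals stood at -4.75 and -4.44 in E13 and higher, at -3.50 and -3.41, in adult cells. No probe was saturated, and arrays correlated at r = 0.991 within E13, 0.989 within adult and 0.727 to 0.742 between stages. Of the hepatoblast markers, 7 of 8 were higher in E13, led by Igf2, H19 and Afp, with Alb higher in adult cells, and 9 of 9 tested hepatocyte markers were higher in adult cells. Markers of other cells also differed. Erythroid markers had 7 of 10 tested genes higher in E13 and 1 in adult (mean level of the list 1.07 and -0.55 in E13, -2.22 and -2.44 in adult). Platelet markers had 7 of 8 higher in E13, 6 of the 8 being undetected in adult cells, and stellate and mesenchymal markers 6 of 8. Of the macrophage markers, 9 of 11 were higher in adult cells. Of 8 tested endothelial markers, 3 were higher in adult cells, 1 was higher in E13 and 4 were uncalled. Over all tested genes 32.1% were higher in adult cells and 32.8% in E13, so the endothelial count in adult cells was near that share. Their part in the results for the transporters was not tested, and in such bulk samples fewer cells of a type and less RNA per cell cannot be told apart.

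Of the 58 transporter genes, 38 were tested. In adult hepatocytes 15 were higher, where 32.1% of all tested genes were, and in E13 hepatoblasts 19 were higher, where 32.8% were. Thus 34 of 38 were called in either direction, as were 64.8% of all tested genes, and 4 were not. All 5 tested Slc7 light chains and both neutral exchangers of the Slc1 family were higher in E13, whereas 5 of 8 tested Slc38 genes and 7 of 10 tested Slc6 genes were higher in adult cells, of which 2 and 2 were still called so when the arrays were scaled to spike-in control probes. The median log2 fold was -0.79 over the 38 members and -0.63 with bounded genes at their bounds, against -0.0099 and 0 over all tested genes.

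**Figure D1:**
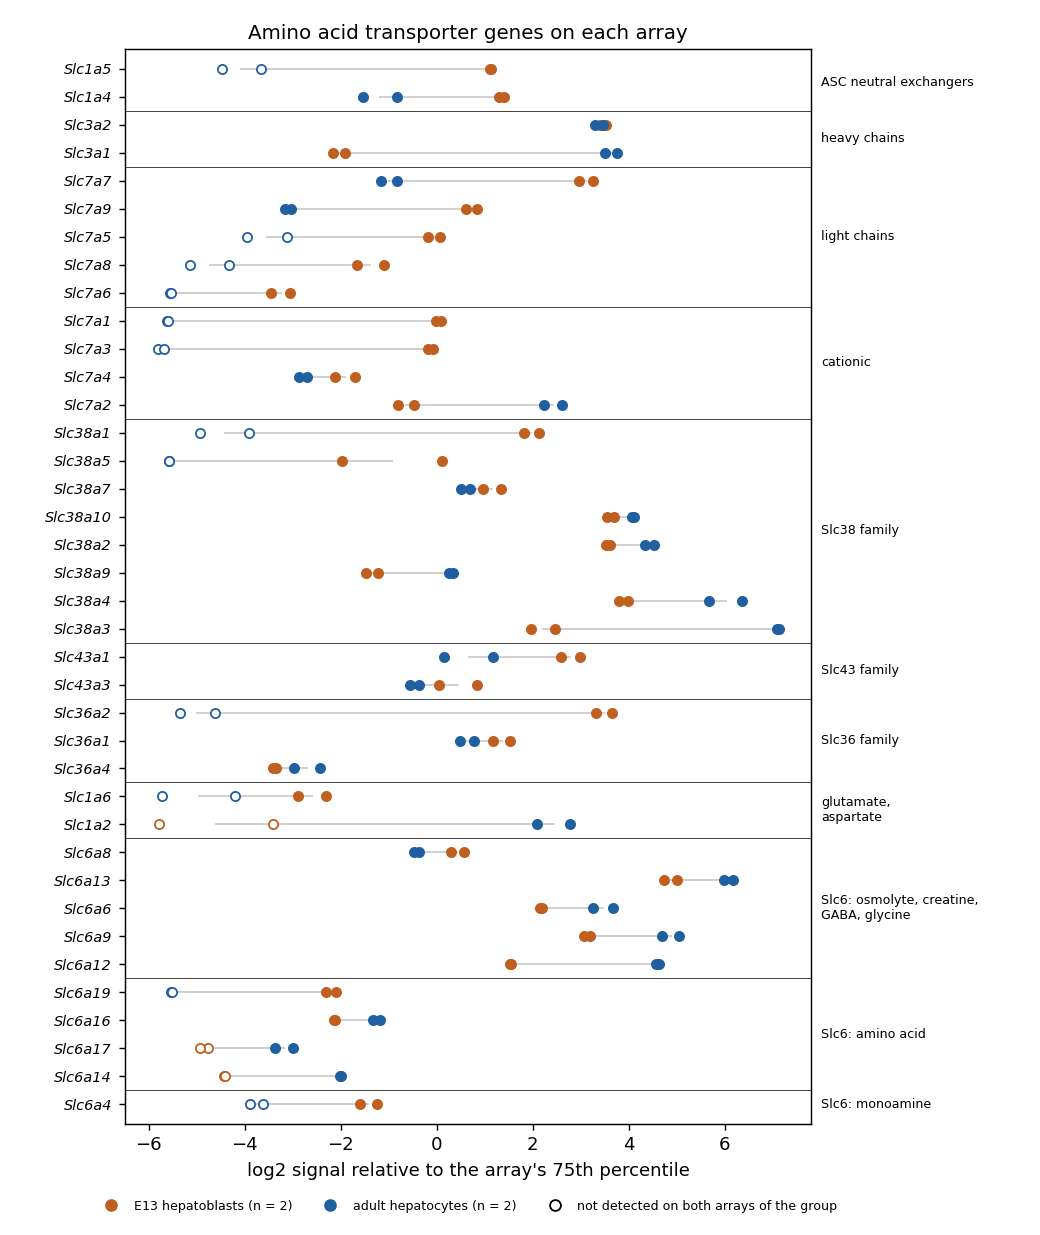
Level of each tested transporter gene on each of the 4 arrays, with genes grouped by role. The horizontal axis is log2 signal minus the 75th percentile of the array. Both points of a stage are filled where both of its arrays were well above background. Otherwise both are open, also where 1 of the arrays was well above background. Both E13 arrays lie apart from both adult arrays in 37 of the 38 genes, the exception being Slc3a2.

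The arrays of the 2 stages did not overlap in 37 of the 38 tested members, and they did not overlap in 85.8% of all tested genes. A fitted change of at least 4-fold was called in 23 members, and in 22.8% of all tested genes. Detection differed with direction: 11 members higher in E13 were undetected in adult cells (10.5% of all tested genes were of this kind), while 1 member, Slc6a17, was higher in adult cells and undetected in E13 (2.69%). Among the 23 members well above background on all 4 arrays the balance was the other way, with 12 higher in adult cells (35.5% of such genes) and 7 in E13 (27.2%). Their median log2 fold was 0.66, against 0.15 over all such genes. Scaling to the spike-in control probes, which lowers the median of all genes by more than 1 on the log2 scale, left 7 members higher in adult cells (Slc1a2, Slc3a1, Slc6a12, Slc6a14, Slc7a2, Slc38a3 and Slc38a4), so small increases below are relative to the bulk of the array.

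**Figure D2:**
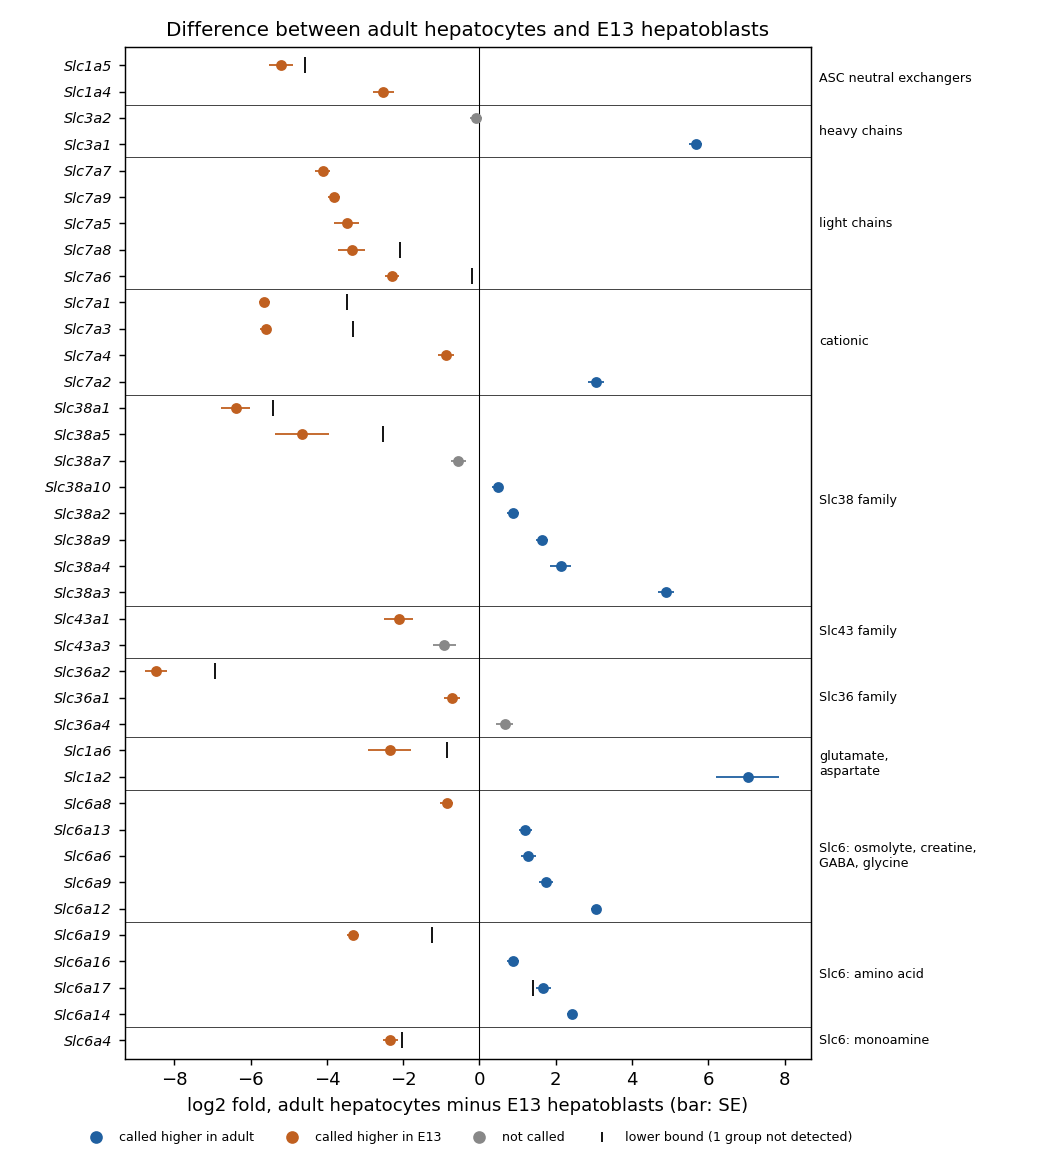
Log2 fold, adult minus E13, of each tested transporter gene with its standard error, from the limma fit on 2 arrays per stage; colours give the call. Values run from -8.48 for Slc36a2 to 7.04 for Slc1a2, and fitted folds of genes undetected in 1 stage are not sizes.

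All 7 tested neutral exchangers and light chains of the heteromeric transporters were higher in E13. Slc1a5, Slc7a6 and Slc7a8 were undetected in adult cells, and Slc7a5 was well above background on 1 adult array. These passed the filter for testing through E13 alone, so their shared direction follows in part from that filter. Slc1a4, Slc7a7 and Slc7a9 were well above background on all 4 arrays. Slc1a5 (ASCT2), which exchanges glutamine and other small neutral amino acids, stood at 1.12 and 1.14 on the E13 arrays and -3.66 and -4.48 on the adult arrays, where it was not well above background. It was at least 24.0-fold higher in E13 (limma adjusted p = 0.000317), and its probe lies on chromosome 7 from 17383359 to 17383418 of mm9. Slc1a4 (ASCT1), the related exchanger of alanine, serine and cysteine, measured 1.39 and 1.29 in E13 and -1.53 and -0.83 in adult cells, a log2 fold of -2.52 ± 0.27 (5.74-fold lower in adult cells, limma adjusted p = 0.00171). Unlike Slc1a5 it was still well above background in adult cells, and its other probe moved the same way (log2 fold -3.32).

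Slc7a5 (LAT1), the exchanger of large neutral amino acids such as leucine, had values of -0.17 and 0.062 in E13 and -3.11 and -3.96 in adult cells, and only 1 adult array was well above background. Its log2 fold was -3.48 ± 0.32 (limma adjusted p = 0.00108, probe on chromosome 8 from 124405142 to 124405201 of mm9). Slc7a8 (LAT2), which carries a wider range of neutral amino acids, read -1.67 and -1.10 in E13 and -4.32 and -5.14 in adult cells and was at least 4.21-fold higher in E13 (limma adjusted p = 0.00165). These carriers bring in the branched-chain and aromatic amino acids, and both were dim in adult cells.

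Slc7a7 (y+LAT1), which exports cationic amino acids in exchange for neutral ones and sodium, was at 3.26 and 2.97 in E13 and -0.83 and -1.17 in adult cells, a log2 fold of -4.12 ± 0.20 (limma adjusted p = 0.0002). It stayed well above background in adult cells, 17.3-fold lower. Macrophages are known to express Slc7a7, and the macrophage list had a mean level of -3.60 and -4.43 in E13 and -1.33 and -1.69 in adult cells. The part of macrophages in the Slc7a7 signal was not tested. Slc7a6 (y+LAT2), with a similar exchange, went from -3.45 and -3.05 to -5.55 and -5.54; it was not well above background in adult cells and at least 1.15-fold higher in E13 (limma adjusted p = 0.000804), but with normexp background correction its log2 fold was 0.13, so its sign turned with the background correction.

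Their heavy chain was not called. Slc3a2 (4F2hc), which carries Slc7a5, Slc7a6, Slc7a7 and Slc7a8 to the surface, measured 3.40 and 3.53 in E13 and 3.30 and 3.47 in adult cells, the stages overlapping (log2 fold -0.084 ± 0.16, limma adjusted p = 0.658). It was called higher in E13 with spike-in scaling, where its log2 fold was -1.32, and with quantile normalization, alone (-0.46) or after normexp (-0.52). The change of Slc3a2 minus that of a light chain does not depend on the scaling of the arrays: it was 3.40 on the log2 scale for Slc7a5 and 4.03 for Slc7a7, where these differences had SDs of 0.074 and 0.30 within E13 and 0.72 and 0.36 within adult cells. No such size is given for Slc7a6 and Slc7a8, which were undetected in adult cells. These pairs were chosen with the values known and were not tested.

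The second heavy chain and its partner went in opposite directions. Slc3a1 (rBAT), the heavy chain of the cystine and cationic amino acid transporter, rose from -1.92 and -2.16 in E13 to 3.51 and 3.75 in adult cells, a log2 fold of 5.67 ± 0.18 (50.9-fold, limma adjusted p = 8.34e-05), with its probe on chromosome 17 from 85463142 to 85463201 of mm9. Slc7a9 (b0,+AT), its light chain, fell from 0.62 and 0.83 to -3.16 and -3.04, a log2 fold of -3.82 ± 0.16 (14.2-fold lower, limma adjusted p = 0.000137). Both genes were well above background on all 4 arrays, and the change of Slc3a1 minus that of Slc7a9 was 9.49 on the log2 scale. Of the remaining light chains none was tested. Slc7a11 (xCT), the cystine-glutamate exchanger, was not well above background on any array with any of its 4 probes, and Slc7a10 was so on 1 E13 array alone.

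Promoter sequence was looked at for motifs of regulators known for these genes, using the 250 bases before each start in RefSeq's mouse assembly GRCm38.p6, which held 60 windows of 40 of the 58 members. The motifs reported here were the amino acid response letters TGATGNAA, the E-box CACGTG, CAAAGTCCA for Hnf4a and the antioxidant response element. Each was searched on both strands. The antioxidant response element was searched as a single fixed string of 10 letters, and variants of it were not searched. TGATGNAA was in 3.45% of all 32851 windows and in those of 2 members, Slc7a7 and Slc7a11. CAAAGTCCA was in 0.384% of all windows and in that of Slc3a1. CACGTG was in 6.02% of all windows and in those of 9 members, among them Slc38a5. The fixed string of the antioxidant response element was in 0.134% of all windows and in no window of a member. That count does not tell whether the windows of members, including those printed below, hold variants of the element. Of the called CACGTG members, Slc1a6, Slc36a1, Slc38a5 and Slc43a1 were higher in E13 and Slc6a16 in adult cells. The 4 windows below are examples, with the motif in capitals, picked with the values known: a single window for each of Slc3a1, Slc7a7, Slc7a11 and Slc38a5. Each runs 5′ to 3′ on the gene's strand and ends at the base before the start. A match is a description of letters, not of binding.
Slc3a1, chr17:85028097-85028346, plus strand, CAAAGTCCA or its reverse complement in capitals: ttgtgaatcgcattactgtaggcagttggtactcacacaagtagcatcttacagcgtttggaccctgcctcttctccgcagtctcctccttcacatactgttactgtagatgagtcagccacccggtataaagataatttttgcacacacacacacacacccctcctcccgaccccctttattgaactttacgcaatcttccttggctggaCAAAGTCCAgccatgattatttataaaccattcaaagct
Slc7a7, chr14:54417703-54417952, minus strand, TGATGNAA or its reverse complement in capitals: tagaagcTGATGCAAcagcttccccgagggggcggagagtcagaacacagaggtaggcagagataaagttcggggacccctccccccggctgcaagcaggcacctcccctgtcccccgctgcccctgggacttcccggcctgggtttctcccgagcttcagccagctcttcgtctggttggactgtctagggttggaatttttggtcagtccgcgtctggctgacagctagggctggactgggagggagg
Slc7a11, chr3:50443614-50443863, minus strand, TGATGNAA or its reverse complement in capitals: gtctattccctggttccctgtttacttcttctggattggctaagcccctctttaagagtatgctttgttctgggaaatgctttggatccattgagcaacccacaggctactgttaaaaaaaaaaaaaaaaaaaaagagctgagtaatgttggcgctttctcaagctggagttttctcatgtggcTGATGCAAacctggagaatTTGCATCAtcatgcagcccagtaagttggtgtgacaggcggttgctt
Slc38a5, chrX:8271131-8271380, plus strand, CACGTG in capitals: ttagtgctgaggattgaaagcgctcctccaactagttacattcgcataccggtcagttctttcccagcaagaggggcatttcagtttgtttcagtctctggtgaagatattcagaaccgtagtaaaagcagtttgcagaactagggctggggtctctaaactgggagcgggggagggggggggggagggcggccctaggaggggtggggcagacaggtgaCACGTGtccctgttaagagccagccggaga
Of the genes shown, Slc3a1 was higher in adult cells, Slc7a7 and Slc38a5 were higher in E13, and Slc7a11 was undetected.

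The cationic carriers differed in direction, with 3 of 4 tested members higher in E13 and 1 in adult cells, where 32.8% and 32.1% of all tested genes were. Of these, Slc7a1 and Slc7a3 passed the filter for testing through E13 alone, so their direction follows in part from that filter. Slc7a1 (CAT1), the widely expressed carrier of arginine and lysine, had values of -0.026 and 0.083 in E13 and -5.63 and -5.60 in adult cells, undetected in the latter and at least 11.2-fold higher in E13 (limma adjusted p = 5.93e-05, probe on chromosome 5 from 149138970 to 149139003 of mm9). A second, dimmer Slc7a1 probe did not show this: its log2 fold was 0.027 with a limma adjusted p of 0.95, and it too was undetected in adult cells. Slc7a3 (CAT3) measured -0.19 and -0.089 in E13 and -5.81 and -5.67 in adult cells and was at least 9.97-fold higher in E13 (limma adjusted p = 6.25e-05). Slc7a2 (CAT2), the cationic carrier known from adult liver, went the other way, from -0.47 and -0.80 in E13 to 2.24 and 2.62 in adult cells, a log2 fold of 3.06 ± 0.22 (8.36-fold higher, limma adjusted p = 0.000504, probe on chromosome 8 from 42002869 to 42002928 of mm9). Slc7a4 was a little higher in E13 (log2 fold -0.87 ± 0.20, limma adjusted p = 0.0185), a call lost without E13 replicate 2, without adult replicate 2 and with normexp background correction.

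The Slc38 family, which moves glutamine with sodium, was split within itself. Slc38a1 (SNAT1) read 1.81 and 2.13 in E13 and -3.91 and -4.93 in adult cells, where it was undetected. It was at least 42.9-fold higher in E13 (limma adjusted p = 0.000326), and all 5 of its probes were called in that direction. All 5 probes were undetected in adult cells and passed the filter for testing through E13 alone, so their shared direction follows in part from that filter. Slc38a5 (SNAT5), a glutamine carrier coupled to protons as well, stood at 0.11 and -1.97 on the E13 arrays and -5.58 and -5.59 on the adult arrays. It was at least 5.76-fold higher in E13 (limma adjusted p = 0.00474). The E13 samples differed widely: the log2 fold was -3.61 without E13 replicate 1 and -5.69 without E13 replicate 2, both called. The erythroid list was likewise higher in E13 replicate 1 (1.07) than in replicate 2 (-0.55). So were the other cell type lists, among them the endothelial list (-1.85 and -3.45), except the hepatoblast list (6.82 and 6.92). The part of red cell precursors or of other cells in the Slc38a5 signal was not tested.

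On the adult side of the family, Slc38a3 (SNAT3), a reversible glutamine carrier known from hepatocytes, rose from 2.46 and 1.97 in E13 to 7.08 and 7.12 in adult cells, a log2 fold of 4.89 ± 0.21 (29.6-fold, limma adjusted p = 0.00015, probe on chromosome 9 from 107553825 to 107553884 of mm9). Slc38a4 (SNAT4), an imprinted liver gene for a carrier of neutral and cationic amino acids, was bright in both stages, at 3.99 and 3.79 in E13 and 5.67 and 6.36 in adult cells, with a log2 fold of 2.13 ± 0.28 (4.36-fold, limma adjusted p = 0.00297). Slc38a9, the lysosomal arginine sensor upstream of mTORC1, went from -1.22 and -1.46 to 0.35 and 0.26 (3.13-fold higher, limma adjusted p = 0.00129), a call lost with spike-in scaling (log2 fold 0.41). None of these overlapped between the stages.

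Slc38a2 (SNAT2), the carrier induced when amino acids are short, read 3.61 and 3.51 in E13 and 4.54 and 4.34 in adult cells. Its log2 fold was 0.88 ± 0.16 (limma adjusted p = 0.00789), its 4 probes ranged from 0.73 to 2.72, all called, but the sign turned with spike-in scaling (-0.36). Its call was also lost without E13 replicate 2 and with quantile normalization, alone (0.42) or after normexp (0.38). Slc38a10 was barely higher in adult cells (log2 fold 0.48 ± 0.15, limma adjusted p = 0.0425), a call that did not survive leaving out any single array and that turned to -0.76 with spike-in scaling. Slc38a7, a lysosomal glutamine exporter, had a log2 fold of -0.55 ± 0.19 and was not called (limma adjusted p = 0.0612), though it was called higher in E13 under 7 alternatives, among them quantile normalization (-0.60), normexp (-0.56) and spike-in scaling (-1.79). Slc38a8 and Slc38a11 were undetected on all arrays.

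Of the Slc43 and Slc36 families, 3 of 5 tested members were higher in E13 and none in adult cells, where 32.8% and 32.1% of all tested genes were. Among these members, Slc36a2 passed the filter for testing through E13 alone. Slc43a1 (LAT3), a facilitated carrier of branched-chain amino acids, measured 2.97 and 2.59 in E13 and 0.15 and 1.18 in adult cells, a log2 fold of -2.12 ± 0.39 (4.34-fold lower, limma adjusted p = 0.00871). Slc43a3 had a log2 fold of -0.92 ± 0.30 and just missed the threshold (limma adjusted p = 0.0506), and it was called higher in E13 under 9 alternatives, among them leaving out E13 replicate 2 (-1.31), normexp (-0.74) and spike-in scaling (-2.15). Slc43a2 (LAT4) was undetected on all arrays with both its probes.

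Slc36a2 (PAT2), a proton-coupled carrier of glycine, proline and alanine, had the largest bound of all members. It stood at 3.66 and 3.33 on the E13 arrays and -5.36 and -4.63 on the adult arrays, where it was undetected, and was at least 123-fold higher in E13 (limma adjusted p = 9.81e-05). Its single probe lies on chromosome 11 from 54972134 to 54972193 of mm9. Slc36a1 (PAT1), the lysosomal and intestinal member, read 1.52 and 1.18 in E13 and 0.48 and 0.78 in adult cells, a log2 fold of -0.72 ± 0.20 (limma adjusted p = 0.0333), and the call was lost without E13 replicate 1, without E13 replicate 2, without adult replicate 1 and with the replicate block (limma adjusted p = 0.0652). Slc36a4 (PAT4) read -3.41 and -3.34 in E13 and -2.44 and -2.98 in adult cells and was not called (log2 fold 0.66 ± 0.23, limma adjusted p = 0.0575); its sign turned with spike-in scaling (-0.57) and it was called higher in adult cells under 6 others, among them leaving out adult replicate 2 (0.93), normexp (0.72) and quantile normalization (0.73).

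Only 2 of the 5 glutamate carriers were tested, and they moved apart. Slc1a2 (GLT-1), the sodium-coupled glutamate carrier known from pericentral hepatocytes and from astrocytes, had values of -5.78 and -3.42 on the E13 arrays, 1 of them well above background, and 2.09 and 2.78 on the adult arrays. Its log2 fold was 7.04 ± 0.83 (131-fold, limma adjusted p = 0.00217), and all 4 of its probes were called higher in adult cells, 3 of them being undetected in E13. The E13 samples lay far apart: without E13 replicate 1 the log2 fold was 5.86, and without E13 replicate 2 it was 8.22, both called. The probe lies on chromosome 2 from 102617706 to 102617765 of mm9. Glul, glutamine synthetase, which pericentral hepatocytes also express, was not called (log2 fold 0.45 ± 0.25, limma adjusted p = 0.174). Of the 17 tested pericentral and periportal genes, 11 were higher in adult cells, 2 were higher in E13 and 4 were uncalled.

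Slc1a6 (EAAT4), known from Purkinje cells, was dim throughout, at -2.31 and -2.90 in E13 and -5.72 and -4.20 in adult cells. It was called at least 1.8-fold higher in E13 (limma adjusted p = 0.019), but not without E13 replicate 1 (log2 fold -2.07, limma adjusted p = 0.0837) nor with normexp background correction (-0.11). Leaving out an adult array moved its log2 fold to -1.60 (replicate 1) or -3.12 (replicate 2). Slc1a1, Slc1a3 and Slc1a7 were undetected on all arrays.

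In the Slc6 family 4 of 5 tested carriers of osmolytes, creatine, GABA and glycine were higher in adult cells and 1 in E13. Over all tested genes the shares were 32.1% and 32.8%. Slc6a12 (BGT1), which takes up betaine and GABA, rose from 1.54 and 1.53 in E13 to 4.57 and 4.62 in adult cells (8.32-fold, log2 fold 3.06 ± 0.14, limma adjusted p = 0.000167). Slc6a9 (GlyT1), a glycine carrier, went from 3.06 and 3.20 to 4.70 and 5.04, a log2 fold of 1.74 ± 0.18 (limma adjusted p = 0.00157). Slc6a6 (TauT), the taurine carrier, went from 2.20 and 2.16 to 3.25 and 3.68, a log2 fold of 1.28 ± 0.20 (limma adjusted p = 0.00515). With spike-in scaling neither of these last changes passed the test, at 0.50 and 0.05.

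Slc6a13, a carrier of GABA and taurine known from periportal hepatocytes, measured 5.0 and 4.74 in E13 and 5.98 and 6.17 in adult cells, and its log2 fold of 1.20 ± 0.17 (limma adjusted p = 0.00417) fell to -0.03 with spike-in scaling. Slc6a8 (CRT), the creatine carrier, was higher in E13 (log2 fold -0.85 ± 0.17, limma adjusted p = 0.0111), a call lost without E13 replicate 2. Slc6a11, a further GABA carrier, was undetected.

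Of the Slc6 carriers of neutral amino acids, Slc6a14 (ATB0,+), which takes up neutral and cationic amino acids, read -4.44 and -4.42 in E13, 1 array being well above background, and -2.02 and -1.99 in adult cells (5.36-fold higher, limma adjusted p = 0.000294). Slc6a17 was at least 2.66-fold higher in adult cells (limma adjusted p = 0.00216), though not called with spike-in scaling, and Slc6a16, at 0.88 ± 0.15 on the same scale of log2 folds (limma adjusted p = 0.00668), turned to -0.36 with that scaling. Slc6a19 (B0AT1), the main neutral amino acid carrier of gut and kidney, was low at -2.09 and -2.31 in E13 and -5.54 and -5.51 in adult cells, undetected in the latter, and at least 2.39-fold higher in E13 (limma adjusted p = 0.000181). Cltrn, the collectrin that brings Slc6a19 to the surface, was also higher in E13, at least 1.07-fold (limma adjusted p = 0.00043).

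The name rule also took in 3 monoamine carriers, which are not amino acid transporters. Slc6a4 (SERT), the serotonin carrier, which platelets also express, measured -1.25 and -1.60 in E13 and -3.90 and -3.62 in adult cells, where it was undetected; it was at least 4.08-fold higher in E13 (limma adjusted p = 0.000897). Platelet markers were higher in E13 in 7 of 8 genes, with a mean level of 0.98 and 0.29 in E13 and -3.89 and -3.74 in adult cells, and their part in the Slc6a4 signal was not tested. Slc6a2 was undetected, and Slc6a3 was well above background on 1 E13 array.

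In all, 20 members were not tested, 18 of them because no probe was well above background on any array. Beside those named above these included Slc36a3, Slc6a7, Slc6a15, Slc6a18, Slc7a12, Slc7a13, Slc7a14 and Slc7a15, which are known mainly from brain, kidney, testis or other tissues where their site is known. An array sets no limit on the RNA of a probe below background, so these genes are undetected here rather than absent.

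Probes of the same gene mostly had the same sign. Of 13 members with more than 1 tested probe, 12 had all probes of 1 sign, 10 had every probe called the same way, and none had probes called in both directions. Slc7a1 was the member with some probes called and others not, and both probes of Slc3a2 and of Slc36a4 were uncalled. The tested probes of Slc38a1, Slc7a1 and Slc7a6 passed the filter through E13 alone and those of Slc1a2 through adult cells alone. Agreement among the probes of these genes follows in part from that filter. Only the coordinates of the probes, not the exon or untranslated region they lie in, were in the files used here.

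**Figure D3:**
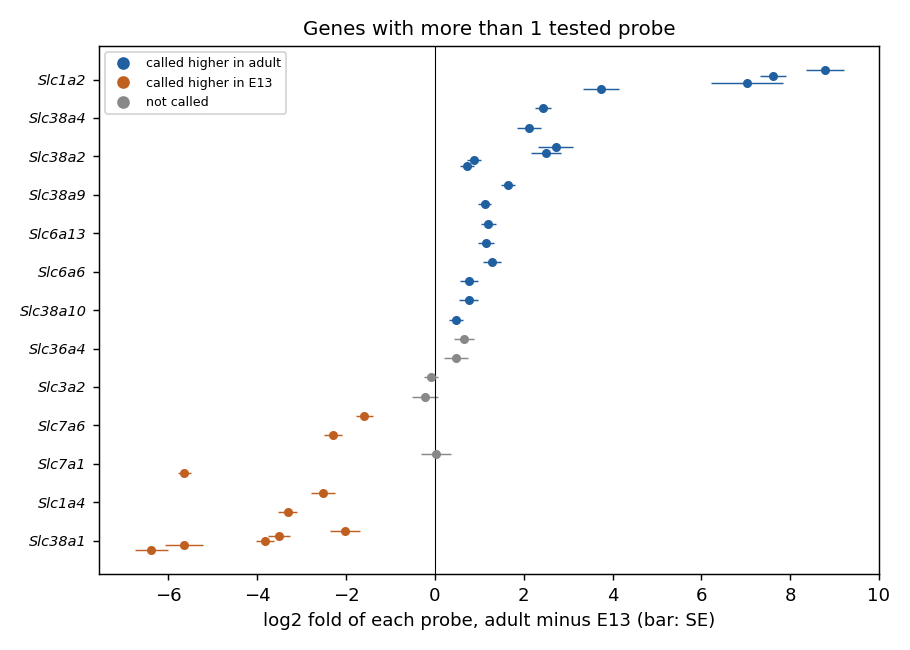
Log2 fold, adult minus E13, with standard error for each tested probe of the 13 transporter genes with more than 1 tested probe. Points of a gene lie on the same side of 0 in 12 genes; in Slc7a1 the fitted values are -5.64 and 0.027, both probes being undetected in adult cells.

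The genes around the transporters were described by lists of the same pathways. Over all tested genes 32.1% were higher in adult cells, 32.8% in E13 and 64.8% in either direction. Of 18 tested enzymes of glutamine, glutamate and arginine, 12 were higher in adult cells and 3 in E13 (median log2 fold 1.92). Gls2, the liver glutaminase, was 58.1-fold higher in adult cells (limma adjusted p = 0.000161), the side of Slc38a3. Arg1, the arginase of the urea cycle, was 109-fold higher in adult cells (limma adjusted p = 9.81e-05), the side of Slc7a2. Of 21 tested genes in the list of branched-chain and aromatic amino acids, 18 were higher in adult cells, led by Tdo2 and Tat, and 2 in E13 (median 2.23). The larger change of the 2 was that of Hmgcs1, 7.75-fold higher in E13 (limma adjusted p = 0.000244). The carriers Slc7a5, Slc7a8 and Slc43a1 of these amino acids were higher in E13.

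Of 19 enzymes of taurine, glycine, betaine and glutathione, 13 were higher in adult cells and 2 in E13 (median 1.73). Among them Baat, which joins bile acids to taurine and glycine, was 184-fold higher in adult cells (limma adjusted p = 8.79e-05), on the side of Slc6a6 and Slc6a9, and Ggt1 was at least 9.14-fold higher in E13 (limma adjusted p = 0.000133). The list of the amino acid response driven by Atf4 was mixed, with 12 of 27 tested genes higher in E13 and 8 in adult cells (median -0.41). The adult count of the Atf4 list was near the share of 32.1% over all tested genes. Its serine synthesis genes Phgdh and Psat1 were at least 2518-fold and at least 439.7-fold higher in E13 (limma adjusted p = 5.61e-05 and 2.99e-05), and Ddit4 was 22.4-fold higher in adult cells (limma adjusted p = 0.000384).

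The lysosomal amino acid sensing list of mTORC1, the pathway that Slc38a9 feeds into, had 5 of 20 tested genes higher in adult cells, 4 in E13 and 11 uncalled (median 0.19). A smaller share of it was called than the 64.8% over all tested genes. Of amino acid transporters outside the name rule, 4 of 7 tested were higher in adult cells and none in E13 (median 0.75), Slc16a10 (TAT1), which carries aromatic amino acids, being 4.79-fold higher (limma adjusted p = 0.000484). The ancillary subunits had 2 of 7 higher in adult cells, near the share of 32.1% over all tested genes, and 1 in E13 (median 0.085). Proliferation genes were higher in E13 in 11 of 12 (median -6.59, -5.69 with bounded genes at their bounds). Pericentral and periportal genes, Slc1a2 among them, were higher in adult cells in 11 of 17 and in E13 in 2 (median 4.70). All medians stand beside -0.0099 over all tested genes, and all counts beside 32.1% higher in adult cells and 32.8% in E13.

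**Figure D4:**
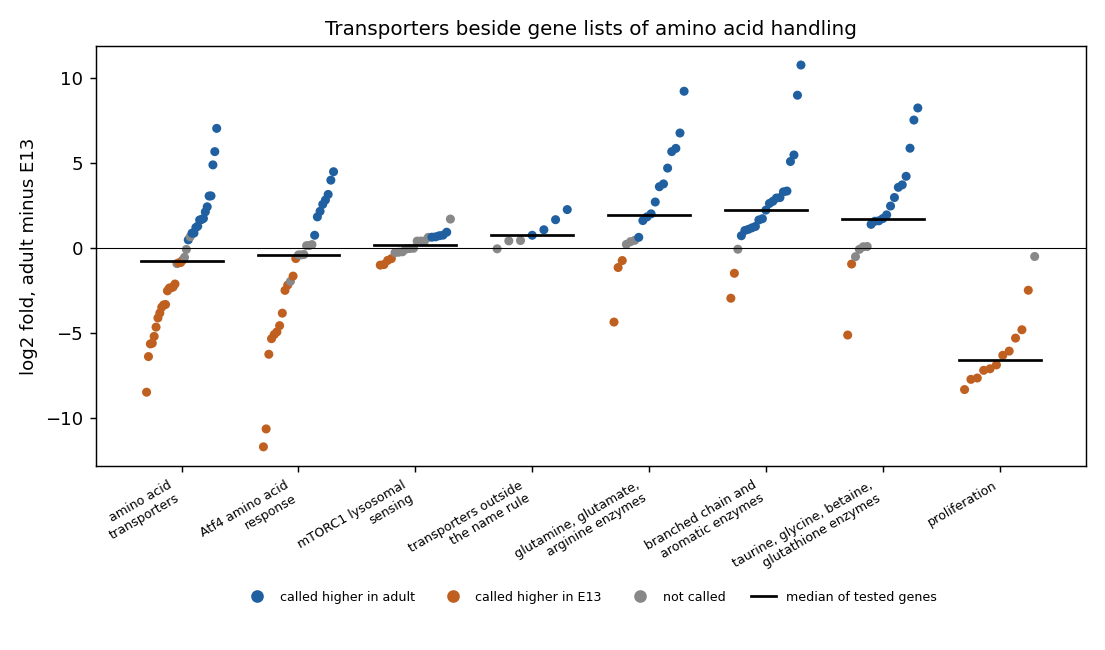
Log2 fold, adult minus E13, of each tested gene in the transporter set and in 7 lists of amino acid handling and growth; points are genes, coloured by call, and the bar is the median. The transporter median is -0.79, between those of the proliferation list (-6.59) and of the branched-chain and aromatic enzymes (2.23).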

How the data were processed

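RNA of 2 E13 hepatoblast and 2 adult hepatocyte samples was measured on 4 arrays. The deposited intensity values came, per the file headers, from Agilent Feature Extraction 10.7.3.1, with local background subtracted and detrended, not scaled between arrays. The authors' deposited log2 values equal the log2 of these intensities minus each array's 75th percentile, as checked against the scanner values. The processed intensity was averaged as log2 over repeated spots and scaled to the 75th percentile, leaving out 1639 control spots and 18 outlier probes. R 4.3.3 with limma 3.58.1 (lmFit, eBayes) and data.table (version 1.17.8) was used, tested on simulated data. The number of arrays limits the precision (2 residual degrees of freedom, median SE 0.18). Members may be named, but some items are not reported here; values per array are given for called members of at least 4-fold and a set of anchors, and for the lists the largest called and first uncalled genes. Members and lists were chosen with earlier results of these data known. Probe coordinates are on mm9, and RefSeq (GRCm38.p6) gave promoters. Alternatives covered background correction, scaling, filters, probe choice, eBayes settings, the replicate block and leaving out each array.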

Additional observations from a re-analysis of the deposited data

How the results depend on the processing

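Of 38 tested members, 21 kept their sign and their side of the threshold under every alternative run and 31 kept their sign; 27 called members kept both under every alternative but spike-in scaling. With spike-in scaling 7 members were called higher in adult cells (15 in the report), 5 instead of 12 among members detected on all arrays, 11 instead of 7 were higher in E13 among the latter, and list genes were 55 (89) higher in adult and 113 (67) in E13. Without a filter on dim probes 28 members were called higher in adult cells. The added calls were of members left out of the main test, 18 of which were not well above background on any array. These calls thus rest mainly on background signals. Using only probes detected on all arrays left 23 members tested, with 9 members and 38 list genes higher in E13 and 13 members higher in adult cells. That filter leaves out the 11 members that were called higher in E13 and undetected in adult cells, so it removes calls mainly on the E13 side. The signs that turned were those of Slc36a4 (-0.57), Slc38a10 (-0.76), Slc38a2 (-0.36), Slc6a13 (-0.03) and Slc6a16 (-0.36) with spike-in scaling, Slc3a2 (0.0028 without adult replicate 1, against as low as -0.17 without adult replicate 2) and Slc7a6 (0.13) with normexp; the cause was not tested. The share of calls higher in adult cells was 49.5% over all genes and 44.1% over members, 15.1% and 23.3% with spike-in scaling, and 72.7% and 59.6% without the filter; normexp gave 59.4% over all genes. The median of all genes moved from -0.0099 to -1.25, 0.75 and 0.21 under spike-in scaling, no filter and normexp. Leaving out each array gave 13 to 15 members higher in adult cells and 17 to 18 in E13, and 10 to 12 and 5 to 6 of those detected on all arrays. Replicate numbers share only a number (correlation of same-numbered deviations -0.16): the replicate block gave 14 members higher in adult cells and 18 in E13 (11 and 6 detected on all arrays), and the crossed pairing, chosen after seeing the data, 15 and 20 (12 and 8). Dim signals limit the folds of members undetected in 1 stage to bounds.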
